A study of Homo sapiens with 47 samples.

Results

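H3K27ac and RNA polymerase II (RNAPII) ChIP-seq libraries from Ishikawa cells that carried dCas9-VP16(10x) with the Pool 3 guide RNAs (gRNAs) were compared with libraries from cells that carried the same activator with gRNAs for the IL1RN promoter. They were chosen by their labels for construct, gRNA target and antibody, and make up 8 of the 47 samples of the series, 2 Pool 3 and 2 IL1RN libraries for each antibody. The study asked whether estrogen receptor binding sites (ERBSs) far from promoters can drive nearby genes when an activator is brought to them without estrogen. Ishikawa is a human endometrial carcinoma line, and all 8 samples came from cells kept in hormone-depleted medium. Plasmids for dCas9-VP16(10x), a nuclease-dead Cas9 fused to 10 copies of the VP16 activation domain, and for 4 gRNAs per site were transfected, and cells were harvested after 72 h. The control cells were not untargeted, since their gRNAs brought the activator to the promoter of IL1RN, the gene of the interleukin-1 receptor antagonist. The model is limited to 1 cell line and to transient transfection, and the 4 sites of Pool 3 were targeted together in the same cells, so no site was measured alone. The labels number the replicates but do not say whether they came from separate cultures, so p-values measure the spread between these samples, which may be technical.

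Acetylation of histone H3 at lysine 27 (H3K27ac) marks active promoters and enhancers and is deposited by acetyltransferases such as p300. VP16 is the activation domain of a herpesvirus protein and acts through coactivators that help to open chromatin and to assemble the transcription machinery. In cells without estrogen the estrogen receptor is largely absent from its sites, so dCas9-VP16(10x) takes the place of the hormone-bound receptor there. RNAPII at a distal site and at a promoter is a readout of polymerase loading.

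Pool 3 held 1 ERBS for each of 4 genes. MMP17 encodes a membrane-type matrix metalloproteinase, CISH a cytokine-inducible inhibitor of the SOCS family, FHL2 a LIM-domain cofactor and HES2 a basic helix-loop-helix transcriptional repressor. Every source places MMP17-3 and CISH-3 in Pool 3. For FHL2 and HES2 the labels list FHL2-1 and HES2-2, whereas an earlier look at H3K27ac in these libraries pointed to FHL2-2 and HES2-1. The methods of the study list FHL2-2 in Pool 1 and HES2-1 in Pool 2. Values of all 6 are given. Because H3K27ac chose between the candidates, it is given there as a description with no test, while RNAPII had no part in the choice.

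All regions of the deposited table span 2000 bp of hg19, with the coordinates as the table gives them. MMP17-3 (chr12:132344557-132346557) lies in an intron of the long noncoding RNA gene ENSG00000256955, and its centre is 32057 bp from the centre of the MMP17 promoter region. CISH-3 (chr3:50575007-50577007) is intergenic and 73067 bp from the CISH promoter region. FHL2-2 (chr2:106025380-106027380) is in an intron of FHL2, 11081 bp from the FHL2 promoter region, and FHL2-1 (chr2:106019419-106021419), also in an FHL2 intron, is 5120 bp from it. HES2-1 (chr1:6482596-6484596) overlaps a HES2 exon and is 3154 bp from the HES2 promoter region. Its centre lies 1134 bp from the annotated HES2 start and 1240 bp from an ESPN start. The centre of the HES2 promoter region lies farther from the HES2 start, at 4288 bp. HES2-2 (chr1:6496329-6498329) lies over ESPN, 16887 bp from the HES2 promoter region. Thus CISH-3 was the most distant of the 6 and HES2-1 the nearest.

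The gRNAs of all 6 candidate sites, 4 for each, are shown because the position of the activator depends on them, and because the sources differ on which FHL2 and HES2 sets were in Pool 3. Each is printed 5′ to 3′ with its protospacer in lower case and its PAM, read from hg19, in capitals.
MMP17-3 gRNA 300: aaacaaggcagcggagcggtGGG
MMP17-3 gRNA 472: gggatgcatgagcccggctcTGG
MMP17-3 gRNA 548: ggagatccccagggcgtcctGGG
MMP17-3 gRNA 767: acagatcagagacactcgctGGG
CISH-3 gRNA 174: agaaacatgactccagaataCGG
CISH-3 gRNA 199: gaagggcagagtgacctgcaAGG
CISH-3 gRNA 250: ttctccccgaaagtggtcatAGG
CISH-3 gRNA 281: ggtttgcttggctaggagagGGG
FHL2-2 gRNA 404: gctgcctgtgtgaatcagacTGG
FHL2-2 gRNA 495: gctctcctggcggagatgctAGG
FHL2-2 gRNA 551: cattccagcgtacttggcacTGG
FHL2-2 gRNA 641: tgagattactgtgcacactcAGG
HES2-1 gRNA 136: agcaacaggctcactgcggcTGG
HES2-1 gRNA 237: acctgtggccgctggaatctGGG
HES2-1 gRNA 299: cgttggaaacccacctggctAGG
HES2-1 gRNA 369: ccatcacgcaggtcgccactAGG
FHL2-1 gRNA 423: tgagctcatcctaatcccccTGG
FHL2-1 gRNA 496: ttagggtaacgaacatagggCGG
FHL2-1 gRNA 579: tgttcctcccactcaaacctTGG
FHL2-1 gRNA 691: tcataaatgctggcgggaagGGG
HES2-2 gRNA 111: tggtggaatactaacgagaaTGG
HES2-2 gRNA 267: tcagaccttctccggctggcTGG
HES2-2 gRNA 335: agcagagctcaccgcaggtcTGG
HES2-2 gRNA 366: ccagctgtgcagaccgccgtGGG

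Each of these gRNAs matched its own chromosome once. In 2 of them, MMP17-3 gRNA 548 and gRNA 767, the first base printed is that of hg19 and differs from the study's table of gRNAs. The gRNAs of CISH-3 were the most closely packed, and all 4 fall in the 150 bp at chr3:50575922-50576071, printed here on the plus strand with the protospacers in capitals.
CISH-3 stretch: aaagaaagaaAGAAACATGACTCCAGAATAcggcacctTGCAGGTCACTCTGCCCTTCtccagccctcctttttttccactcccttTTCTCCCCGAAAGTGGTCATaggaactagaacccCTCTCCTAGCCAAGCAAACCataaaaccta

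The regions were searched on both strands for the palindromic estrogen response element, GGTCA and TGACC around 3 spacer bases of any kind, which the receptor binds, allowing mismatches. At most 1 mismatch was found in 5 of the 23 regions (21.7%), which include CISH-3 and FHL2-2. In CISH-3 the best match was GGTCActcTGcCC (chr3:50575964-50575976), which lies wholly under the protospacer of gRNA 199 (chr3:50575960-50575979). In FHL2-2 the best match was GGTCAtggTGtCC, with lower case for the bases of the spacer and for the mismatch. The best matches in MMP17-3, FHL2-1 and HES2-2 had 2 mismatches and that in HES2-1 had 3. A match is a description of letters and not of binding.

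The table holds a normalized signal per region and library, in which every value was a whole multiple of the worth of 1 read, so that reads could be counted. The H3K27ac libraries held 348 (Pool 3 replicate 1), 4164 (Pool 3 replicate 2), 2278 (IL1RN replicate 1) and 4284 (IL1RN replicate 2) reads in the 23 regions, and the RNAPII libraries 1799 to 2624. H3K27ac Pool 3 replicate 1 was the shallowest of the 20 H3K27ac libraries, with 17 of its 23 regions under 10 reads and 5322 peaks, against 16463 to 25160 peaks in the other 3. Both H3K27ac replicates 1 carry the same leading number in the names of their peaks and the replicates 2 carry no such number. The labels do not say what this peak-name number stands for. Ratios within a replicate number are therefore given beside the pooled ones. The RNAPII IL1RN libraries differed by less than sampling noise (chi-square of 15.9 on 21 degrees of freedom, p = 0.773, over 22 regions) and were counted as 1 sample in all fits of the regions. Promoters of 10 epithelial genes checked the cell type: a H3K27ac peak was found at 7, 9, 10 and 10 of them in the 4 libraries in the order above and a RNAPII peak at all 10 in every library. No library had a peak at any of 5 blood, 4 endothelial or 5 liver promoters, and 0 or 1 of 5 stromal promoters had one in each library.

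H3K27ac rose at both sites that every source places in Pool 3. Signal was 7.98-fold higher at MMP17-3 and 27.9-fold higher at CISH-3 in Pool 3 than in IL1RN cells, by the ratio of the means, and these were the only 2 of 23 regions that passed the test (8.7%, limma, adjusted p under 0.05). HES2-1 also had more H3K27ac in both Pool 3 libraries than in either control and FHL2-2 in replicate 2 of Pool 3, whereas at the promoters of the 4 genes the groups overlapped. After scaling every library to the median of its 23 regions, the test gave 2 higher and 4 lower regions, against 2 higher and 0 lower as deposited. In the shallow Pool 3 replicate 1 that median was a signal of 0.120, which is 3 reads, so results on this scale rest on a small divisor.

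At MMP17-3 the H3K27ac signal was 3.64 and 4.40 in the Pool 3 replicates 1 and 2 and 0.314 and 0.693 in the IL1RN replicates 1 and 2. Both Pool 3 values stood above both controls, and above all 8 libraries of the other gRNA targets with dCas9-VP16(10x), which ranged from 0.314 to 1.62. The means were 4.02 ± 0.539 and 0.503 ± 0.268 (SD, n = 2 each). The limma log2 fold change was 3.09 (SE 0.70, 95% confidence interval 1.59 to 4.59, adjusted p = 0.00825 over the 23 regions). Within replicate 1 the signal was 11.6-fold higher and within replicate 2 it was 6.35-fold higher. The Pool 3 value of replicate 1 rested on 91 reads and that of replicate 2 on 844. Of the 8 other H3K27ac libraries, Adjacent replicate 1 also carried the IL1RN gRNAs by its label. Pool 1 replicate 2 is labelled VP16, but its column and peak names carry the letter that other names use for p300.

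CISH-3 was near background in the dCas9-VP16(10x) libraries without its gRNAs. H3K27ac there was 0.280 and 0.521 in Pool 3 and 0 and 0.0287 in IL1RN, with 7 and 100 reads against 0 and 7. The count of 0 allows up to 3 reads in that library, a signal of 0.0188, which is below both Pool 3 values. The other dCas9-VP16(10x) libraries ranged up to 0.0449 and none reached Pool 3. With dCas9-p300(core), a library of other gRNAs reached 0.375, above the 0.280 of Pool 3 replicate 1. The log2 fold change was 5.05 (SE 1.20, 95% confidence interval 2.50 to 7.60, adjusted p = 0.00825 by limma), and within replicate 2 the signal was 18.2-fold higher. The log2 fold change at CISH-3 depended on the pseudocount. It was 6.78 with a lower pseudocount and 2.98 with 10 times the pseudocount, where MMP17-3 also had 2.98. The level of H3K27ac at CISH-3 in Pool 3 (mean 0.400) stayed below that of MMP17-3 in the control cells (mean 0.503).

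Both calls rested on the first control library. Without IL1RN replicate 1 the log2 fold changes were 2.52 at MMP17-3 (adjusted p = 0.0800, limma) and 3.56 at CISH-3 (adjusted p = 0.147), and none of the 23 regions passed. With only the 4 libraries in the fit, MMP17-3 had an adjusted p of 0.365 (limma) at the same log2 fold change as in the main fit. With all other dCas9-VP16(10x) libraries as the control, both calls held. The log2 fold changes were then 2.41 at MMP17-3 and 3.95 at CISH-3 (adjusted p = 0.00707 each, limma).

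**Figure D1:**
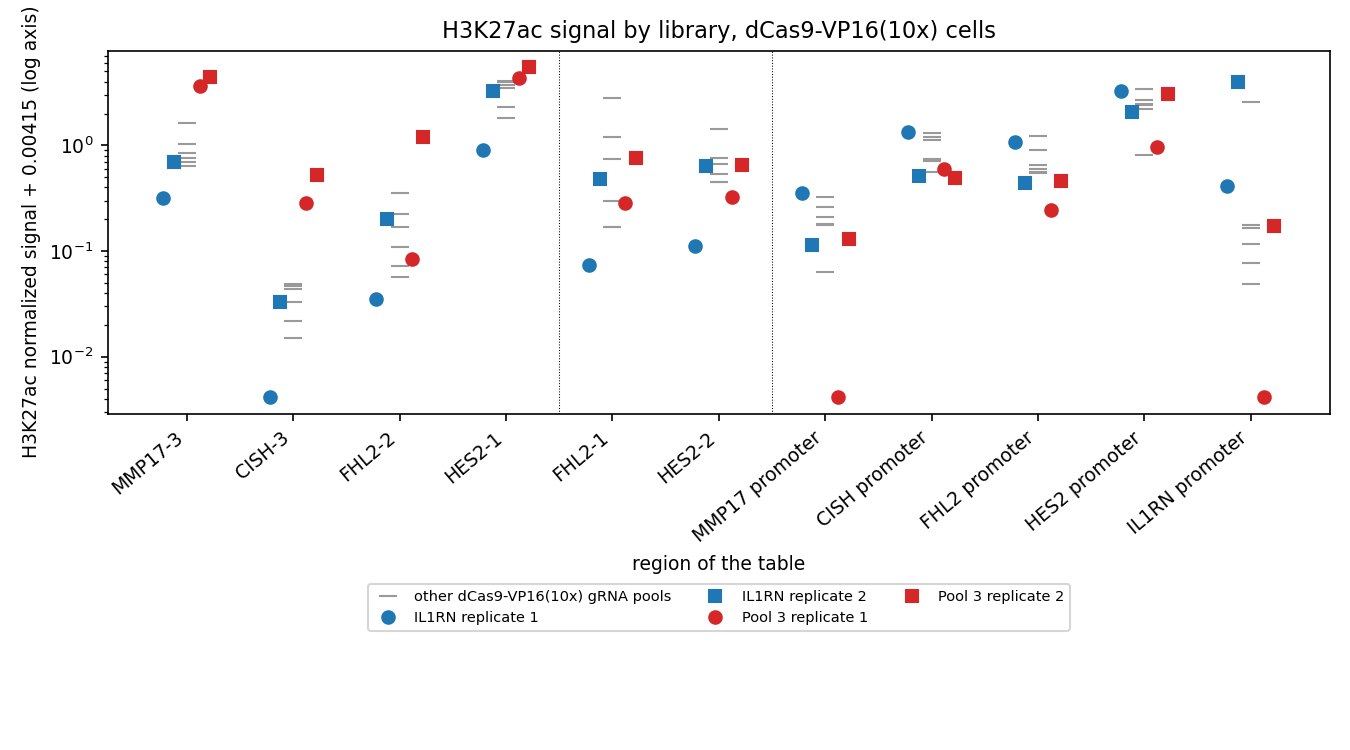
H3K27ac normalized signal plus the pseudocount of 0.00415 (log axis) at the 6 candidate sites, the 4 promoters of their genes and the IL1RN promoter (horizontal axis), in Pool 3 (red) and IL1RN (blue) libraries, circles for replicate 1 and squares for replicate 2, with gray dashes for the other 6 dCas9-VP16(10x) libraries. At MMP17-3, CISH-3 and HES2-1 both red marks lie above every blue and gray mark, and at FHL2-2 only the red square does.

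HES2-1 already carried strong H3K27ac in control cells. The signal was 4.35 and 5.48 in Pool 3 against 0.904 and 3.29 in IL1RN, and the other dCas9-VP16(10x) libraries reached at most 4.04. Both Pool 3 values were therefore above all 8 others, but by little in replicate 1. The means were 4.92 ± 0.796 and 2.097 ± 1.69 (SD, n = 2 each), a log2 difference of 1.50, with ratios of 4.82 within replicate 1 and 1.67 within replicate 2. The log2 difference was 0.57 without IL1RN replicate 1, 2.43 without IL1RN replicate 2 and 0.53 with libraries divided by the median of the regions. On that last scale Pool 3 replicate 2 no longer stood above all 8 others (12.5 against up to 16.7), while replicate 1 did (36.3). At HES2-2, which the labels list, the signal was 0.320 and 0.651 in Pool 3 against 0.107 and 0.635 in IL1RN. The groups overlapped there, and other dCas9-VP16(10x) libraries reached 1.41.

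FHL2-2 differed between the replicates. Pool 3 replicate 2 had a signal of 1.20 from 230 reads, above every other dCas9-VP16(10x) library, while replicate 1 had 0.0799 from 2 reads. The IL1RN values were 0.0314 and 0.197, so the groups overlapped, and the log2 difference was 1.91. Within replicate 2 the signal was 6.09-fold higher in Pool 3. At FHL2-1 the signal was 0.280 and 0.755 in Pool 3 against 0.0690 and 0.479 in IL1RN, again with overlap. The Pool 2 libraries had 1.18 and 2.78 there with dCas9-VP16(10x) and 0.939 and 5.26 with dCas9-p300(core). Neither FHL2-1 nor HES2-2 had a H3K27ac peak in any of the 4 libraries.

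Over the whole table both Pool 3 libraries exceeded both controls at 3 regions (13.0%), MMP17-3, CISH-3 and HES2-1, and lay below both at 2 (8.7%), HES2-3 and the IL1RN promoter. The 12 regions that are neither candidate sites nor promoters had log2 fold changes of -1.57 to 1.17 with a median of 0.16, beside a median of 0.22 over all 23. None of the 12 passed, and 4 of the 23 had an unadjusted p under 0.05. Against all 8 other dCas9-VP16(10x) libraries, MMP17-3 and CISH-3 had an exact two-sided permutation p of 0.0222, the smallest that 45 splits allow, and an adjusted p of 0.256 over the 23 regions. At that smallest p, the 4 sites of Pool 3 alone could not reach an adjusted p under 0.05 with either antibody, so the adjusted values decide nothing. Pool 3 stood above all 8 at 3 regions (13.0%).

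The share of a library's reads that fell in the sites does not depend on how the library was scaled. MMP17-3 and CISH-3 together held 28.2% of the H3K27ac reads in the 23 regions in Pool 3 replicate 1 (98 of 348, 95% Wilson interval 23.7% to 33.1%) and 22.7% in replicate 2 (944 of 4164, 21.4% to 24.0%). Over the 8 other dCas9-VP16(10x) libraries the lowest share was 2.19%, the median 4.08% and the highest 7.71%, so both Pool 3 libraries, the shallow and the deep, stood above all of them. With FHL2-2 and HES2-1 added the shares were 60.1% and 53.5% in Pool 3 and 8.74% to 26.9% in the 8 others, which is a description, since H3K27ac chose those 2 sites. The intervals cover counting error only.

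**Figure D2:**
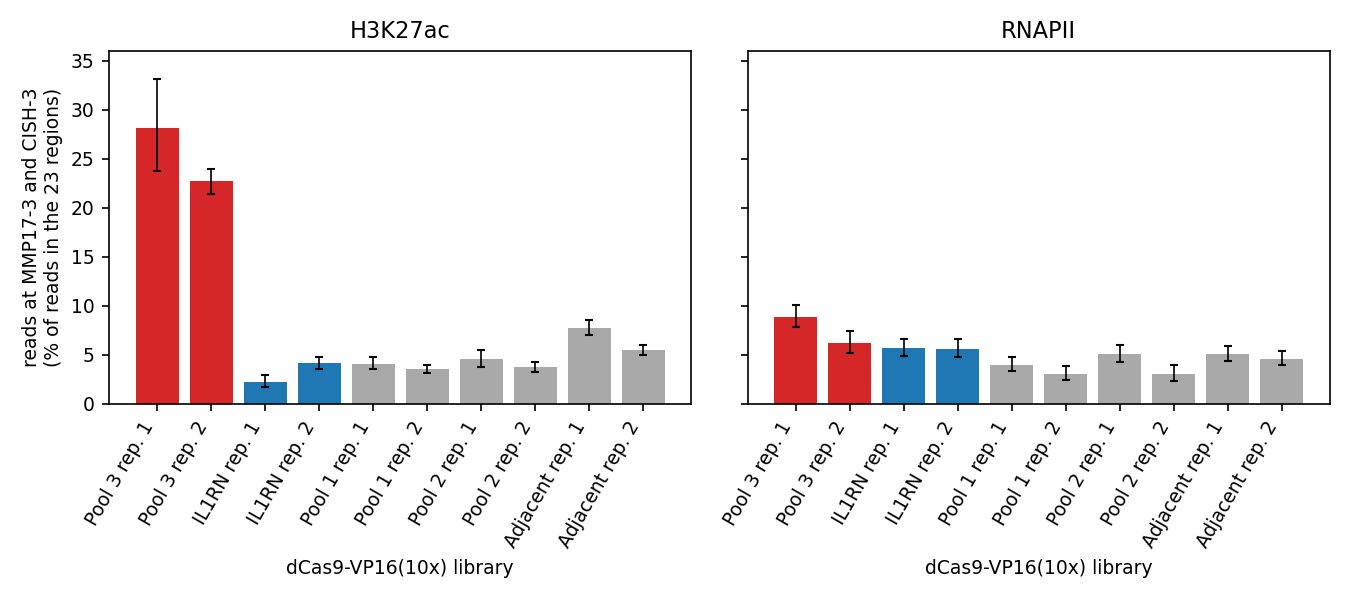
Share of the reads in the 23 regions (vertical axis, percent) that lay in MMP17-3 and CISH-3, for each dCas9-VP16(10x) library (horizontal axis), with 95% Wilson intervals as error bars. The H3K27ac bars of Pool 3 (red) stand at 28.2% and 22.7%, above the 2.19% to 7.71% of the others, and the RNAPII bars at 8.86% and 6.23%, beside 2.99% to 5.68%, with the interval of replicate 2 reaching into that range.

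The peak lists of the same libraries give fold enrichment over background, again as a description at FHL2-2 and HES2-1. MMP17-3 had a H3K27ac peak of 17.0-fold and 23.7-fold in the Pool 3 replicates, 9.31-fold in IL1RN replicate 2 and none in IL1RN replicate 1. HES2-1 had a peak in all 4 libraries, of 16.3-fold and 54.0-fold in Pool 3 and 8.10-fold and 25.7-fold in IL1RN. CISH-3 and FHL2-2 had a peak in Pool 3 replicate 2 only, of 13.1-fold and 13.5-fold. Of the 2555 peaks of that library with none in either IL1RN list, FHL2-2 ranked 11 and CISH-3 ranked 14 by fold enrichment, where the median was 7.36-fold. Across both constructs, CISH-3 and FHL2-2 had a H3K27ac peak in 2 of the 4 Pool 3 libraries each and in 0 of the 16 libraries of other pools or IL1RN. MMP17-3 had one in 8 and HES2-1 in 11 of those 16. By the methods of the study, those 16 include libraries with the gRNAs of FHL2-2 (Pool 1) and of HES2-1 (Pool 2).

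No region passed the test for RNAPII. At MMP17-3 RNAPII was 1.59-fold and at HES2-1 1.62-fold higher in Pool 3, by the ratio of the means, whereas CISH-3 and FHL2-2 had low signal in all 4 libraries. In limma 0 of the 23 regions had an adjusted p under 0.05 (0.0%) and 0 had an unadjusted p under 0.05. In simulated RNAPII data the test recovered 4.25% of log2 changes of 1 and 34.8% of changes of 2. Changes of the size seen here would thus mostly be missed.

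At MMP17-3 the RNAPII signal was 1.03 and 0.650 in Pool 3 replicates 1 and 2 and 0.529 and 0.526 in IL1RN. At HES2-1 it was 2.50 and 1.81 against 1.33 and 1.34. The groups did not overlap at either site, and these were 2 of 6 regions (26.1% of the 23) where both Pool 3 values were above both controls. The log2 fold changes were 0.63 at MMP17-3 (SE 0.65, 95% confidence interval -0.75 to 2.01) and 0.67 at HES2-1 (SE 0.66, -0.74 to 2.09), each with an adjusted p of 0.980 by limma. Replicate 1 of Pool 3 carries the same peak-name number as both controls. Within replicate 1 RNAPII was 1.95-fold higher at MMP17-3 and 1.89-fold higher at HES2-1.

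MMP17-3 and HES2-1 were also the only 2 of the 23 regions (8.7%) where RNAPII of both Pool 3 libraries lay above all 8 other dCas9-VP16(10x) libraries, which reached 0.556 and 1.45. The exact two-sided permutation p was 0.0222 at each, the smallest possible, and 0.170 after adjustment over the 23 regions. With the IL1RN pair counted as 1 sample it was 0.0278, the smallest of 36 splits, and 0.213 adjusted. Over the libraries of other gRNAs with either construct, RNAPII reached 0.668 at MMP17-3, above the 0.650 of Pool 3 replicate 2. At HES2-1 those libraries reached 1.58, below both Pool 3 values. CISH-2, an ERBS outside Pool 3, lay below all 8 with the same p of 0.0222.

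At the other candidates RNAPII did not separate the groups. CISH-3 had 0.0919 and 0.0568 in Pool 3 against 0.0637 and 0.0690 in IL1RN, with 9 to 19 reads a library and a log2 fold change of 0.12 (95% confidence interval -2.096 to 2.33), so a change within that wide interval cannot be told from none. FHL2-2 had 0.223 and 0.0252 against 0.0796 and 0.125. FHL2-1 had 0.252 and 0.0252 against 0.191 and 0.186. At both FHL2 sites the Pool 3 replicates lay on either side of the controls, with 4 reads each in replicate 2. HES2-2 had 0.484 and 0.322 against 0.442 and 0.423.

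**Figure D3:**
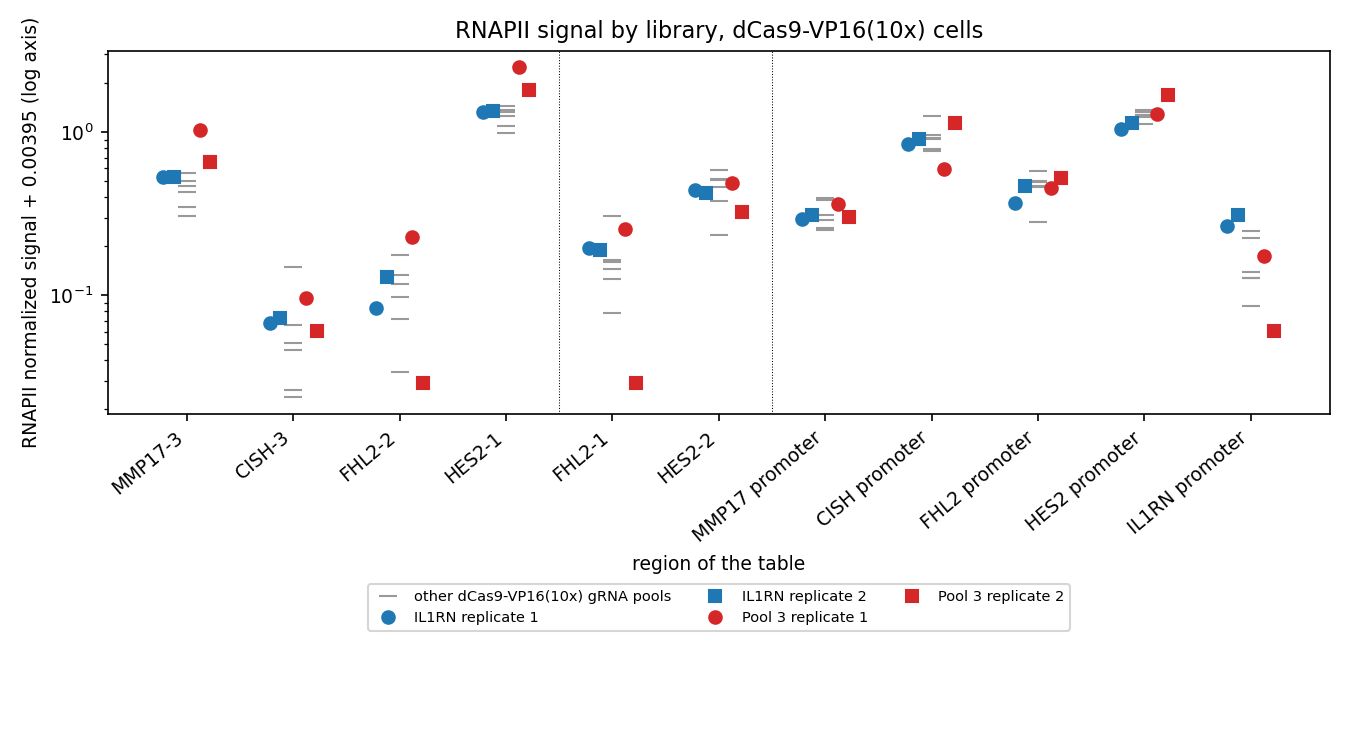
RNAPII normalized signal plus the pseudocount of 0.00395 (log axis) at the same 11 regions, libraries and marks as in the plot of H3K27ac. The red marks of Pool 3 lie above all blue and gray marks at MMP17-3 and HES2-1 and straddle the blue ones at CISH-3, FHL2-2, FHL2-1 and HES2-2.

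RNAPII peaks at the sites did not mark Pool 3. MMP17-3 had a peak of 6.04-fold and 5.63-fold enrichment in Pool 3 and of 5.94-fold in IL1RN replicate 1. HES2-1 had peaks of 15.0-fold and 8.43-fold in Pool 3 and of 14.4-fold and 14.6-fold in IL1RN. CISH-3, FHL2-2 and FHL2-1 had none in any of the 20 RNAPII libraries of Pool 3 and other gRNAs. HES2-2 had a peak in both IL1RN libraries, of 12.5-fold and 6.55-fold, and in neither Pool 3 library. Thus the higher table signal at HES2-1 was not matched by a higher peak in replicate 2.

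MMP17-3, CISH-3, FHL2-2 and HES2-1 together held 30.4% of the RNAPII reads in the 23 regions in Pool 3 replicate 1 (795 of 2618, 95% Wilson interval 28.6% to 32.2%) and 22.4% in replicate 2 (403 of 1799, 20.5% to 24.4%). The IL1RN replicates held 19.1% and 19.4%, and the 8 other dCas9-VP16(10x) libraries ranged from 11.6% to 19.4% with a median of 16.9%. MMP17-3 and CISH-3 alone held 8.86% and 6.23%, beside 2.99% to 5.68% in the 8 others. The interval of replicate 2 (5.20% to 7.44%) holds the highest of those 8.

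**Figure D4:**
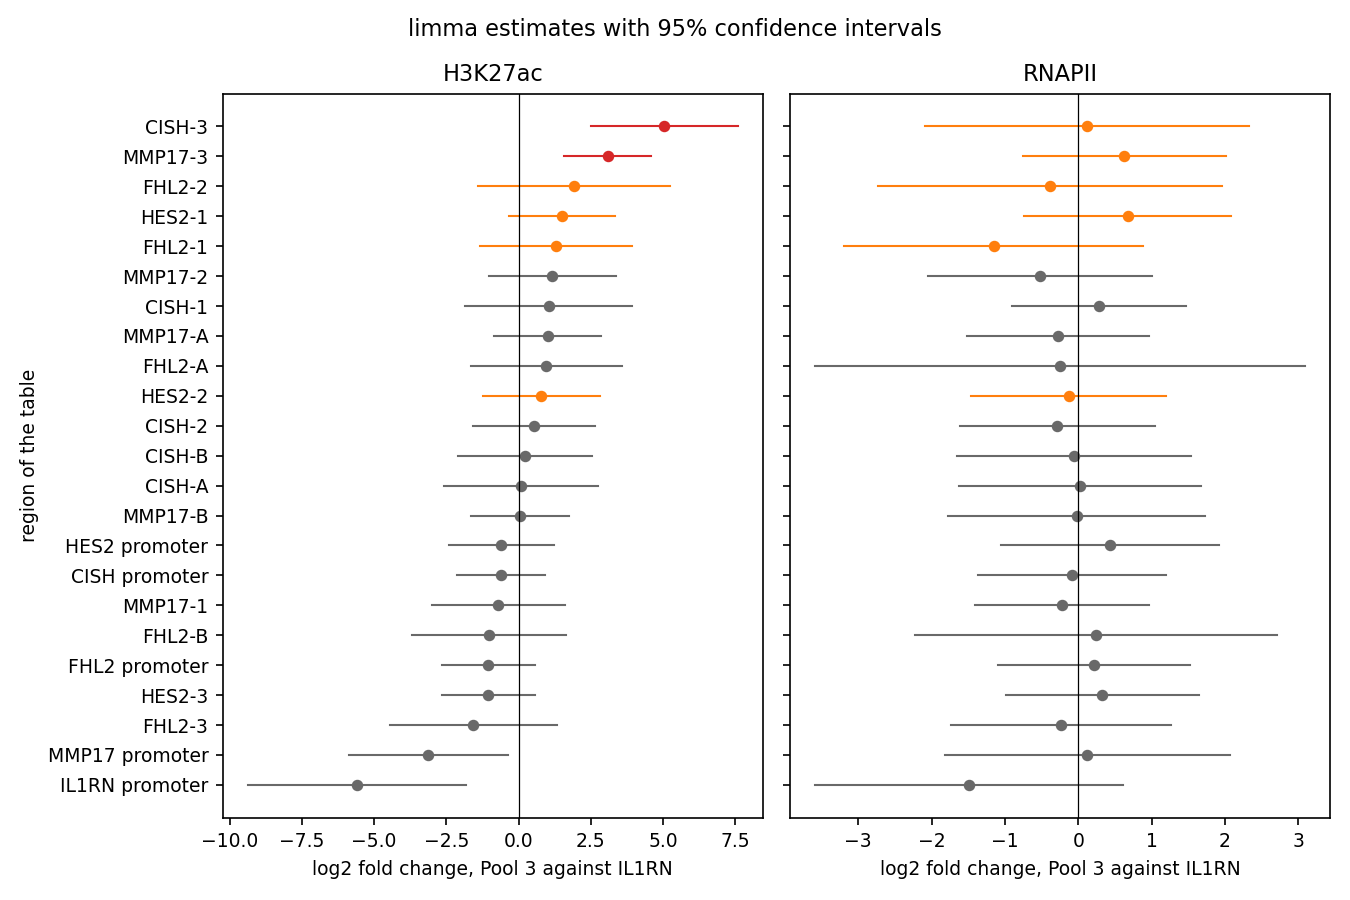
Log2 fold change of Pool 3 against IL1RN (horizontal axis) with 95% confidence intervals from limma for the 23 regions (vertical axis), H3K27ac left and RNAPII right. Red marks the 2 regions that passed, CISH-3 at 5.05 and MMP17-3 at 3.09 for H3K27ac, orange the other candidate sites and gray the remaining regions, and H3K27ac at the FHL2 and HES2 sites is a description.

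H3K27ac at the promoters of the 4 genes overlapped between Pool 3 and IL1RN. The MMP17 promoter had H3K27ac of 0 and 0.125 in Pool 3 against 0.351 and 0.111 in IL1RN, and no library had a H3K27ac or RNAPII peak there. Its log2 fold change was -3.13 (unadjusted p = 0.0284, adjusted p = 0.163 by limma), with 0 reads in the shallow Pool 3 library, which allows a signal of up to 0.120. It passed with libraries divided by the median of the regions (-4.67, adjusted p = 0.00950, limma) and with the peak-name number as a block (-3.13, adjusted p = 0.0318). Without Pool 3 replicate 2 the log2 fold change was -5.61. The CISH promoter had 0.599 and 0.485 against 1.32 and 0.512, the FHL2 promoter 0.240 and 0.453 against 1.07 and 0.439, and the HES2 promoter 0.959 and 3.04 against 3.28 and 2.05. These 3 promoters had log2 fold changes of -0.61 for CISH, -1.04 for FHL2 and -0.60 for HES2.

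RNAPII at the HES2 promoter was 1.29 and 1.69 in Pool 3 against 1.05 and 1.14 in IL1RN. Both Pool 3 values were above both controls, with a log2 fold change of 0.43 (SE 0.69, adjusted p = 0.980 by limma). At the other 3 promoters the groups overlapped, with log2 fold changes of 0.13 at MMP17, -0.09 at CISH and 0.21 at FHL2. Of the 4 promoters, that of HES2, whose site lies nearest, was the only one with more RNAPII in both Pool 3 libraries.

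The IL1RN promoter, which the control cells target, served as a check of the labels. H3K27ac there was 0.408 and 4.00 in the IL1RN replicates and 0 and 0.167 in Pool 3, so both controls lay above both Pool 3 libraries, replicate 1 by much less. The log2 fold change was -5.59 (SE 1.78, adjusted p = 0.0505, limma). It passed with libraries divided by the median of the regions (adjusted p = 0.000700, limma) and with only the 4 libraries (0.0284). It also passed with the replicate number as a block (0.0123) and with the peak-name number as a block (9.25e-06). Without Pool 3 replicate 2 the log2 fold change was -8.28. Only IL1RN replicate 2 had a H3K27ac peak there, of 32.0-fold enrichment. RNAPII was 0.263 and 0.306 in IL1RN against 0.169 and 0.0568 in Pool 3 (log2 fold change -1.49, adjusted p = 0.980, limma).

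Pool 3 was also delivered with dCas9-p300(core), which carries the catalytic core of the acetyltransferase p300. With p300, H3K27ac at MMP17-3 was 2.40 and 4.34 in Pool 3 against 0.534 and 0.691 in IL1RN, and at CISH-3 it was 0.618 and 2.61 against 0.0624 and 0.371. The same sites were thus higher with either activator. The Pool 3 effect of dCas9-VP16(10x) minus that of dCas9-p300(core) was 0.69 on the log2 scale at MMP17-3 (95% confidence interval -1.43 to 2.81) and 2.03 at CISH-3 (-1.57 to 5.64). No region of 23 passed for a difference between activators (0.0%) with either antibody, and none had an unadjusted p under 0.05 (limma). A p that missed the threshold does not show that the activators act alike, since the intervals are wide. For RNAPII the difference was -0.10 at MMP17-3 (-1.88 to 1.68) and -0.18 at HES2-1 (-2.005 to 1.64).

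Beyond the table, regions were formed from the peak lists. Of 4028 regions with a H3K27ac peak in both Pool 3 libraries, 5 had none in either IL1RN list (0.124%). The reverse, in both IL1RN and neither Pool 3 list, held for 418 of 10308 regions (4.06%). Against the same controls, Pool 1 gave 249 of 14574 such regions (1.71%), Pool 2 767 of 14954 (5.13%) and the Adjacent pool 2471 of 17997 (13.7%). By its label, Adjacent replicate 1 also carried the IL1RN gRNAs, and its H3K27ac signal at the IL1RN promoter was 2.57. Pool 3 had the fewest such regions for H3K27ac. The count followed single libraries. Without Pool 3 replicate 1, the shallow library, it was 2555 of 24890 peaks (10.3%), and without Pool 3 replicate 2 it was 52 of 5322 peaks (0.977%). These counts are over the peaks of 1 list and not over regions of both, so they are not alike. Over the 4028 regions it was 37 without IL1RN replicate 1 (0.919%) and 119 without IL1RN replicate 2 (2.95%). None of the 4 sites is among the 5, because CISH-3 and FHL2-2 lacked a peak in replicate 1 and the other 2 had a peak in a control.

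The 5 regions lay within the autophagy gene WDR45 (chrX:48937042-48937561, 11.5-fold and 19.7-fold enrichment), at the start of EIF3L beside ANKRD54, of which EIF3L encodes a translation initiation factor subunit (mean 10.0-fold), in LDLRAD3 (9.70-fold), in the fibroblast growth factor receptor gene FGFR2 (9.25-fold) and at an intergenic position of chromosome 15 (7.10-fold). All 5 also had a peak in a dCas9-VP16(10x) library of another gRNA pool. Of the 5, 4 had a peak in 1 of the p300 Pool 3 libraries and 0 in both. None of the 5 was thus limited to Pool 3.

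For RNAPII, 101 of 13675 regions with a peak in both Pool 3 libraries had none in either IL1RN list (0.739%), and the reverse held for 6650 of 27080 (24.6%). Pool 1 gave 866 of 20660 (4.19%), Pool 2 0 of 11475 (0.0%) and the Adjacent pool 782 of 25336 (3.09%). Without Pool 3 replicate 1 the count was 2639 of 20545 peaks (12.8%), and without Pool 3 replicate 2 it was 591 of 22628 (2.61%), each over the peaks of 1 list. Without IL1RN replicate 1 it was 206 of the 13675 regions (1.51%). The IL1RN lists were longer, with 33212 and 35592 peaks against 20545 and 22628. Regions among those with the highest mean enrichment lay in NAP1L4 (14.9-fold), a histone chaperone gene, THUMPD3-AS1 (13.6-fold), KANSL1L (12.2-fold), PNRC2 and SRSF10 (11.8-fold), the meiotic mismatch repair gene MSH4 (11.5-fold), the heat shock protein gene HSP90AA1 (10.9-fold), HNRNPDL (10.6-fold), RPL30 (10.6-fold) and an intergenic position (10.5-fold). Only 15 of the 101 (14.9%) lay within 1 kb of the start of a protein-coding transcript, against 77.8% of the 13675. Of the 101, 93 had a peak in another dCas9-VP16(10x) pool, 53 in a p300 IL1RN library and 5 in both p300 Pool 3 libraries. Their median enrichment was 7.98-fold against 11.6-fold for all regions of both Pool 3 libraries.

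Of the 101 regions, 2 flanked HES2-1. They lay at chr1:6476500-6476959 in HES2 (7.18-fold and 7.83-fold in the Pool 3 replicates), 5637 bp from the site, and at chr1:6486278-6486798 in ESPN (5.41-fold and 8.58-fold), 1682 bp away. Within 10 kb of a site, a window chosen after the values were seen, lay 1.98% of the 101 and 0.0585% of the 13675 regions. Within 250 kb the shares were 1.98% and 0.373%. Both were also peaks in both Pool 1 libraries of dCas9-VP16(10x).

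The gRNA sequences were searched in hg19 for other matches. With 1 to 3 mismatches and a PAM, the gRNAs of the 6 sites had 248 other matches. None fell in the 5 H3K27ac or the 101 RNAPII regions, and 0 of 4028 (0.0%) and 4 of 13675 (0.0293%) regions of both Pool 3 lists held one.

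Where all 4 lists had a peak, fold enrichment could be tested. None of 3688 H3K27ac regions passed (0.0%, limma, smallest adjusted p 0.886, with 19 at an unadjusted p under 0.05), and none of 12982 RNAPII regions did (0.0%, 486 at an unadjusted p under 0.05). Without IL1RN replicate 2, 1517 H3K27ac regions passed, and without Pool 3 replicate 1, 1100 RNAPII regions passed. HES2-1 had the largest H3K27ac increase of the 3688, a log2 difference of 2.04 after each library was centred on its median, which is a description here. By pairs of libraries it ranked 33 of 3812 within replicate 1 and 94 of 17950 within replicate 2, but 2525 of 3843 for Pool 3 replicate 1 against IL1RN replicate 2. MMP17-3 ranked 22 of 17950 within replicate 2 and 147 of 3843 for Pool 3 replicate 1 against IL1RN replicate 2. For RNAPII the log2 difference was -0.16 at HES2-1 and 0.48 at the HES2 promoter, which ranked 810 of 12982.

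The H3K27ac differences of the 3688 regions split by location, with a median log2 difference of -0.17 over 2615 regions at promoters and 1.096 over 1073 others. The split was present against IL1RN replicate 1 (-0.44 and 2.103) and small against IL1RN replicate 2 (0.03 and 0.06). Median enrichment was 54.9-fold in IL1RN replicate 1 and 13.5-fold to 19.4-fold in the other 3 libraries. IL1RN replicate 1 also had the lower control value of H3K27ac at all 6 candidate sites. This was not particular to those sites. Its value was also the lower at the IL1RN promoter and, except at MMP17-B and HES2-3, at the regions that are neither sites nor promoters. It was the higher at the MMP17, CISH, FHL2 and HES2 promoters. The values without IL1RN replicate 1 are those given above for MMP17-3 and CISH-3.

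**Figure D5:**
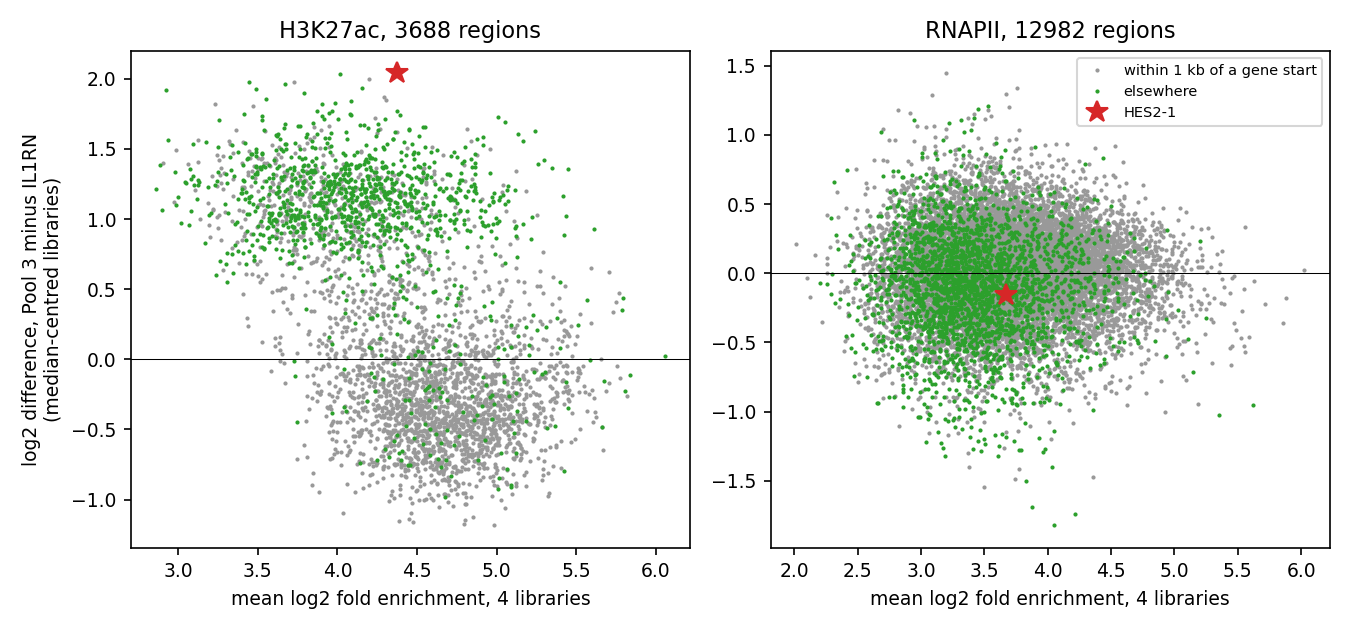
Log2 difference in fold enrichment between Pool 3 and IL1RN (vertical axis, libraries centred on their medians) against the mean log2 enrichment of the 4 libraries (horizontal axis), for 3688 H3K27ac regions (left) and 12982 RNAPII regions (right), gray within 1 kb of a gene start and green elsewhere. The red star, HES2-1, is the highest point for H3K27ac at 2.04 and lies at -0.16 for RNAPII.

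Promoter peaks in both Pool 3 libraries and neither control were too rare among all promoters for their count near the sites to be informative. Within 250 kb of the 4 sites lay 47 protein-coding genes. A H3K27ac peak in both Pool 3 libraries and neither control was at 0 of their promoters, beside 1 of all 20149 promoters (0.00496%). The reverse held at CACNA2D2, a calcium channel subunit gene near CISH-3, and ZBTB48, a telomere-binding zinc finger gene near HES2-1, beside 310 of all promoters (1.54%). For RNAPII the counts were 0 beside 1 of all promoters (0.00496%), and the reverse held at HES3 alone, beside 475 of all promoters (2.36%). A RNAPII peak in all 4 libraries was at 34 of the 47 promoters, beside 52.3% of all 20149.

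Promoters of estrogen-responsive, interferon-stimulated and immediate early genes were counted from lists. Of all 20149 promoters, 3012 and 10085 had a H3K27ac peak in Pool 3 replicates 1 and 2 and 11436 and 10115 in IL1RN, and 10789 and 11887 against 12600 and 12484 had a RNAPII peak. Of 12 estrogen-responsive genes, 3 and 5 promoters had a H3K27ac peak in the Pool 3 replicates and 6 and 5 in IL1RN, and the median log2 difference at the 3 with a peak in all 4 (CCND1, XBP1 and SGK1) was -0.51, beside -0.17 over the 2615 promoter regions. RNAPII peaks were at 4 and 5 against 6 and 6 of them, with a median of -0.14 at 4 promoters beside 0.025 over promoter regions. Of 12 interferon-stimulated genes, 1 and 7 promoters had H3K27ac in Pool 3 and 4 and 7 in IL1RN, and RNAPII was at 3 and 3 against 5 and 4. Of 12 AP-1 and immediate early genes, RNAPII was at 12 and 11 promoters in Pool 3 and at 12 and 12 in IL1RN, with a median difference of -0.18 at 11 promoters, and H3K27ac at 5 and 9 against 12 and 10. No promoter of these lists passed the test of enrichment with either antibody.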

How the data were processed

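Per the submitters' processing notes, reads were aligned to hg19 with Bowtie 1.1.2, and SAMtools, bedtools and MACS2 2.1.0.20140616 were used. The authors removed duplicates, counted reads in 23 regions, and divided by total read depth and by the average depth within overlapping peaks of the antibody to give the deposited normalized signal. The deposited peak lists, 1 per library, hold the fold enrichment as a ratio over background and the −log10 of each p-value and q-value.

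Log2 was taken after a pseudocount equal to the lowest non-zero signal (0.00415 in H3K27ac and 0.00395 in RNAPII libraries) had been added. limma 3.58.1 (R 4.3.3) was fitted to 20 H3K27ac and 19 RNAPII libraries, with 1 mean for each of the 10 combinations of construct and gRNA target, and p-values were adjusted by Benjamini-Hochberg over the 23 regions. Fold changes are on this scale, and ratios are of mean signals. Reads are whole multiples of each library's step (tolerance of 0.02 of a step), and Wilson intervals (scipy 1.17.1) cover counting error only. Peaks that shared 1 bp were merged (bedtools 2.31.1). Fold enrichment in regions of all 4 lists was tested by limma on log2 values centred per library. Genes are those of GENCODE 44 lifted to hg19, protein-coding and long noncoding, and a promoter is within 1 kb of a protein-coding start. Scripts were tested on simulated data.

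Replicate numbers were not used as a block, since the labels do not say that they mark a shared culture. Named regions and genes are the 6 candidate sites, 5 promoters, the 10 most enriched Pool 3 peaks per antibody, genes within 250 kb with a one-sided pattern, and the lists. One named region is not reported here. The members and lists were chosen with earlier results of these data known. HA libraries enter only the closing section. Alternatives covered pseudocount, scaling, filters, samples in the fit, blocks, peak threshold and overlap, and left-out replicates.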

Additional observations from a re-analysis of the deposited data

Results flagged for a closer look

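HA ChIP-seq, which reads the tag on dCas9, was not used in the comparisons above, because its libraries carried gRNAs for all ERBSs at once and not Pool 3 alone. In the dCas9-VP16(10x) library with gRNAs for all ERBSs and duplicates removed, HA signal relative to the HA library with IL1RN gRNAs was 12.5-fold at MMP17-3, 11.1-fold at CISH-3, 21.7-fold at FHL2-2 and 5.96-fold at HES2-1. It was 14.3-fold at FHL2-1 and 10.5-fold at HES2-2, so HA does not tell the candidates for Pool 3 apart. The signals were 16.5 against 1.32 at MMP17-3, 3.11 against 0.279 at CISH-3, 7.15 against 0.330 at FHL2-2 and 21.2 against 3.55 at HES2-1. These values were singled out because they lie above the control library in data outside the main measurement. The other dCas9-VP16(10x) column with gRNAs for all ERBSs, whose name carries no mark of duplicate removal, gave higher ratios, of 47.0 at MMP17-3, 15.0 at CISH-3, 37.0 at FHL2-2, 19.9 at HES2-1, 22.2 at FHL2-1 and 17.6 at HES2-2. There is 1 control library and no test, and the name of the first column does not say which of the study's HA samples it holds.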

How the results depend on the processing

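The count of 2 H3K27ac regions became 6 (2 higher, 4 lower) with libraries divided by the median of all regions. It was 5 (3 higher, 2 lower) with the peak-name number as a block, and it changed when IL1RN replicate 1 was left out, as given above. The 5 H3K27ac peaks of both Pool 3 libraries and neither control became 0 at a −log10 q of 20 and 3 when a longer overlap, relative to the shorter peak, was required. With a replicate left out the count ranged from 37 (without IL1RN replicate 1) to 2555 (without Pool 3 replicate 1). For either antibody, peak counts without a Pool 3 replicate are over the peaks of 1 list and not over regions of both. The 101 RNAPII peaks became 9 at a −log10 q of 20 and ranged from 141 to 2639 (without Pool 3 replicate 1). Tested enrichment gave 0 to 1517 H3K27ac regions (without IL1RN replicate 2) and 0 to 1100 RNAPII regions (without Pool 3 replicate 1), against 0 with all libraries. With a replicate left out, the lone library of a group is assumed to vary like the other groups. The RNAPII regions and the differences between activators gave 0 calls in every alternative.

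MMP17-3 lost its call in 2 alternatives and CISH-3 in 1, all given above, and both were higher in Pool 3 in all 16. H3K27ac at the IL1RN promoter passed in 5 alternatives (lowest adjusted p 9.25e-06, limma) and at the MMP17 promoter in 3. Both counts include the fit without Pool 3 replicate 2. Directions turned, with none past the threshold. Divided by the median of 4 promoters, H3K27ac became 0.15 at the CISH promoter and 0.16 at the HES2 promoter. With the peak-name number as a block RNAPII became 0.66 at FHL2-2 and 0.11 at HES2-2. With a replicate left out, H3K27ac ranged from -1.29 to 0.072 at the CISH promoter (above 0 without IL1RN replicate 1) and from -1.43 to 0.23 at the HES2 promoter (above 0 without Pool 3 replicate 1). RNAPII ranged from -0.21 to 0.45 at CISH-3, from -0.0091 to 0.26 at the MMP17 promoter and from -0.55 to 0.38 at the CISH promoter, turning without Pool 3 replicate 1. It ranged from -1.87 to 1.09 at FHL2-2, from -2.72 to 0.41 at FHL2-1 and from -0.42 to 0.16 at HES2-2, turning without Pool 3 replicate 2. The cause was not tested. With no test, H3K27ac at FHL2-2 moved to 3.83 and -0.0074 on the log2 scale without Pool 3 replicate 1 and 2.

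The labels do not say that replicates with the same number shared a culture, and their deviations correlated at 0.18 for H3K27ac and -0.45 for RNAPII over the 23 regions. With the replicate block, H3K27ac gave 3 regions, RNAPII regions 0 and RNAPII enrichment 4. With crossed pairing, RNAPII gave 0 regions and 11 in enrichment. A planned count model on the recovered reads was not run. Depth limits H3K27ac Pool 3 replicate 1 most, with 17 regions under 10 reads. Settings chosen after seeing the data are the peak-name number as a block, array weights, the crossed pairing and leaving out Pool 1 replicate 2. Counting the RNAPII control pair as 1 in the permutation and enrichment tests was also chosen then. For H3K27ac, the names of Pool 1 replicate 2 carry the letter of p300, as given above, so its construct is uncertain. It was kept among the other dCas9-VP16(10x) libraries in the ranges, permutation test, read shares and Pool 1 peak counts.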

Other observations

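HES2-3, an ERBS over ESPN that Pool 3 does not target, differed in opposite directions for the 2 antibodies. H3K27ac there was 1.68 and 1.71 in Pool 3 against 5.74 and 2.15 in IL1RN, and RNAPII was 1.53 and 2.22 against 1.50 and 1.45. Neither pair of groups overlapped, and neither log2 fold change passed in limma (-1.05 with SE 0.75 and adjusted p = 0.576 for H3K27ac, 0.33 with SE 0.62 and adjusted p = 0.980 for RNAPII). HES2-3 was chosen after its values were seen.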
